A study of Mus musculus with 28 samples.

Results

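The unfolded protein response and the integrated stress response of mouse liver were followed through 10 genes, chosen by symbol: Atf6, Xbp1, Herpud1, Atf4, Atf3, Ddit3, Trib3, Chac1, Asns and Ddit4. All 10 were among the 23393 gene symbols of the deposited count tables, and all 10 were among the 12607 genes that passed the filter on low counts. The series holds livers of 28 mice, 7 per group and 1 library each, all 129svj animals at 11 to 13 months of age. HZ WY mice were heterozygous for SIRT6, a NAD-dependent deacylase of histones, and received WY-14643 (WY), a synthetic agonist of the nuclear fatty acid receptor PPARα, at 50 mg/kg by mouth. WT WY mice were wild type and received the same dose. HZ vehicle and WT vehicle mice had the same genotypes and received 0.5% carboxymethylcellulose, the carrier of WY, without the drug. Livers of every group were taken 12 h after dosing. HZ is a model of partial loss, since these mice keep a wild-type copy of Sirt6. The labels used here state neither their sex nor how the Sirt6 allele was made.

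The unfolded protein response begins in the membrane of the endoplasmic reticulum (ER), where IRE1α, PERK and ATF6 sense unfolded proteins. IRE1α splices the Xbp1 transcript into its active form, ATF6 is cut free to enter the nucleus, and both switch on chaperones and factors for the disposal of misfolded proteins such as Herpud1. PERK, together with kinases that sense amino acid shortage, viral RNA and lack of haem, phosphorylates eIF2α. This is the integrated stress response, in which general translation falls while translation of ATF4 rises. ATF4 and its partners then switch on Atf3, Ddit3, Trib3, Chac1, Asns and genes of amino acid synthesis and transport. Hepatocytes secrete most plasma proteins and carry a large load of ER folding, and PPARα ligands act mainly on these cells. Splicing, cleavage and translation are not measured by counts of reads per gene, so the values below describe transcript abundance.

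The promoters are shown first because they tell apart the genes with letters that ATF4 or the ER branch can recognise. RefSeq windows on GRCm38.p6, from 250 bases before to 50 bases after the transcription start, were at hand for 9 of the 10 genes, Atf6 being the other. The C/EBP-ATF element, searched as TGATGNAA on both strands, was in 5 of these 9 windows (Atf3, Trib3, Asns, Chac1 and Herpud1), beside 3.97% of all 32851 windows. The ER stress element II, ATTGG and CCACG with 1 base between them on both strands, was in the Herpud1 window, beside 12 of 32851 windows. None of the 9 windows held, on either strand, the ER stress element (CCAAT and CCACG with 9 bases between them, in 0.119% of all windows), the cAMP response element (TGACGTCA, 1.79%) or a PPAR response element (AGGTCA repeated after 1 base, 0.0396%). The matches did not overlap one another. The windows of Herpud1 (chr8:94386179-94386478, plus strand), Trib3 (chr2:152344011-152344310, minus strand), Chac1 (chr2:119350992-119351291, plus strand) and Ddit4 (chr10:59951721-59952020, minus strand) belong to genes that fell under WY, and that of Asns (chr6:7693160-7693459, minus strand) to an ATF4 target that did not pass the test. Capitals mark the C/EBP-ATF element and, in Herpud1, also the ER stress element II, and all are written 5′ to 3′ along the gene.
Herpud1: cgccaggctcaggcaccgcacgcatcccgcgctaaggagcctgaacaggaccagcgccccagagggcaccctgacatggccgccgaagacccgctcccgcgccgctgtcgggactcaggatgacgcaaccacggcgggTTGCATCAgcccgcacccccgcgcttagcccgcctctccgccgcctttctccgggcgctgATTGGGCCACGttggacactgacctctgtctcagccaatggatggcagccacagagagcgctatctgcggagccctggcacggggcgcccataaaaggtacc
Trib3: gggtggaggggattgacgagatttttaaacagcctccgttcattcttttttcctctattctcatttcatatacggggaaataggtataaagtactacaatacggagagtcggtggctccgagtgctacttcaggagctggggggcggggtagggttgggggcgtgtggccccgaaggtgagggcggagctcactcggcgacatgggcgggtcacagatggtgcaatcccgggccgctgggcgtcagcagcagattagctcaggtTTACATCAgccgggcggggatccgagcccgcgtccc
Chac1: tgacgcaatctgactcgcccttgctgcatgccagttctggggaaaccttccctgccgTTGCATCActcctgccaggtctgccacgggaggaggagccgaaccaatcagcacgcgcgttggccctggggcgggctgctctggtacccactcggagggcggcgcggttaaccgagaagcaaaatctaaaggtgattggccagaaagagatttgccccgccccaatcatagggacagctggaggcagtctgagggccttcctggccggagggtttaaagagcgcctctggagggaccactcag
Asns: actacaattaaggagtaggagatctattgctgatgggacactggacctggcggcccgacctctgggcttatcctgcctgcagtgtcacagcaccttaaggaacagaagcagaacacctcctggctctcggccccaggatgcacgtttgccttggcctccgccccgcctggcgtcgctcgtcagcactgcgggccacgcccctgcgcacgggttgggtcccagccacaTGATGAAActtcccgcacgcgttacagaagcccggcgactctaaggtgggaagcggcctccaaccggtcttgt
Ddit4: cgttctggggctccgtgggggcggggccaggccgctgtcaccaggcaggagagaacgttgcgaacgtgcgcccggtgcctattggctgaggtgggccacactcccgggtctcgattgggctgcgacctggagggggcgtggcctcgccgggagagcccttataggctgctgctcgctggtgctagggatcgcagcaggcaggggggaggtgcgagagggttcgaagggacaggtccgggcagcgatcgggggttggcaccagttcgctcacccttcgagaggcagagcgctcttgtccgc
Counted from the first transcribed base as 1, with no 0, the C/EBP-ATF match ran from -112 to -105 in Herpud1, 15 to 22 in Trib3, -193 to -186 in Chac1 and -23 to -16 in Asns, and the ER stress element II of Herpud1 from -52 to -42. In Herpud1, Trib3 and Chac1 the C/EBP-ATF letters lay on the strand opposite to the gene. The Ddit4 window held none of the motifs searched.

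Gene counts came to 15795201 to 20020078 per library. Levels in CPM are counts per 1000000 counts of the genes kept by the filter, with the library totals scaled by TMM. Sirt6 had 1.61 ± 0.359 CPM (mean ± SD, n = 7) in HZ WY, 3.31 ± 0.685 in WT WY, 1.21 ± 0.180 in HZ vehicle and 2.38 ± 0.615 in WT vehicle livers, and was lower in HZ, with log2 fold changes of -1.04 ± 0.16 under WY (adjusted p = 0.00721) and -0.97 ± 0.17 under vehicle (adjusted p = 0.00696). All 10 textbook PPARα targets examined rose with WY in both genotypes, beside 29.3% of all genes in HZ and 27.4% in WT. Without single libraries 9 to 10 of them rose in WT. The summed level of 6 hepatocyte markers was 48592 to 84644 CPM in HZ WY, 69581 to 80705 in WT WY, 77903 to 109860 in HZ vehicle and 85330 to 112985 in WT vehicle livers. With WY 5 of the 6 fell in each genotype, beside 26.4% of all genes in HZ and 26.7% in WT. With WY in HZ, 2 of 4 tested cholangiocyte markers rose, Sox9 (0.70 ± 0.19 log2 units, adjusted p = 0.00267) and Krt19 (0.93 ± 0.38, adjusted p = 0.0364), as did the stellate cell marker Col1a1 (1.46 ± 0.45, adjusted p = 0.00743), while none of the 3 passed in WT and none passed the test of the difference between the genotypes. Of the 7 stellate cell and fibroblast markers 1 rose and 1 fell in HZ, and 2 of the 4 cholangiocyte markers had negative estimates there. Among all genes 29.3% rose and 26.4% fell with WY in HZ. The 7 stellate cell and fibroblast markers summed to 231 to 382 CPM in HZ WY, 236 to 275 in WT WY, 228 to 411 in HZ vehicle and 249.5 to 332 in WT vehicle livers. The cholangiocyte sum was 22.0 to 97.1 CPM in HZ WY, highest in animal 21, 26.0 to 37.5 in WT WY, 26.6 to 68.7 in HZ vehicle and 29.3 to 37.6 in WT vehicle livers, and the part of these cell types in the changes of the 10 genes was not tested. The 10 Kupffer cell markers summed to 298 to 791 CPM in HZ WY, 263 to 388 in WT WY, 352 to 737 in HZ vehicle and 353 to 488 in WT vehicle livers. The 6 neutrophil and monocyte markers with a row, of 7 listed, summed to 5.07 to 24.5 CPM in HZ WY, 3.70 to 5.61 in WT WY, 4.58 to 20.6 in HZ vehicle and 4.80 to 9.66 in WT vehicle livers. The 4 exocrine pancreas markers summed to 0 to 0.235 CPM over all livers, with Cpa1 at 0 throughout. On the second principal component 5 HZ libraries stood apart, animals 14, 15 and 21 with WY and animals 30 and 38 with vehicle. Animal 38 had the most genes detected of all libraries, 16606. In the HZ vehicle group it had the highest neutrophil and monocyte, stellate cell and cholangiocyte sums, while the Kupffer sum was highest in animal 30. Animal 38 was also the highest in Ddit4, at 29.0 CPM, and the part of its cell types in that value was not tested. The WY and vehicle libraries are in separate tables with separate ranges of animal numbers, so that an effect of WY and an effect of a separate handling of those animals cannot be told apart. In whole liver, fewer cells of a type and less RNA per cell cannot be told apart either.

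Between genes, levels are comparable only per transcript length. In WT vehicle livers Herpud1, a membrane component of the machinery that disposes of misfolded ER proteins, was the most abundant of the 10 with 166 ± 49.0 CPM per kilobase of merged exons (SD, n = 7). Xbp1, the IRE1α substrate, followed with 53.5 ± 14.1, Atf4 with 36.3 ± 3.75 and Asns, asparagine synthetase, with 33.8 ± 3.36 CPM per kilobase. Atf6, the cleaved ER sensor, had 8.36 ± 0.646, Trib3, a pseudokinase that restrains Akt and ATF4, 6.23 ± 2.86, and Ddit4, an mTORC1 inhibitor also called REDD1, 4.69 ± 2.41 CPM per kilobase. Ddit3, which encodes the pro-apoptotic factor CHOP, had 3.41 ± 0.441, Chac1, which breaks down glutathione, 1.16 ± 0.772, and Atf3, an ATF4-induced repressor, 0.430 ± 0.219 CPM per kilobase. Neighbours in this order had ranges that did not overlap at 3 places, between Herpud1 and Xbp1, between Asns and Atf6 and between Ddit3 and Chac1. The other neighbours overlapped. The coefficient of variation within a group ran from 5.29 to 8.63% for Atf6 and from 47.1 to 81.8% for Chac1, the most variable of the 10 in each group. Atf6 was the least variable in 3 of the 4 groups, and Atf4 was in WT WY livers (6.01%, beside 7.27% for Atf6). Chac1 rested on 2 to 207 reads per library and Atf3 on 9 to 43, so their values carry the largest counting error.

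**Figure D1:**
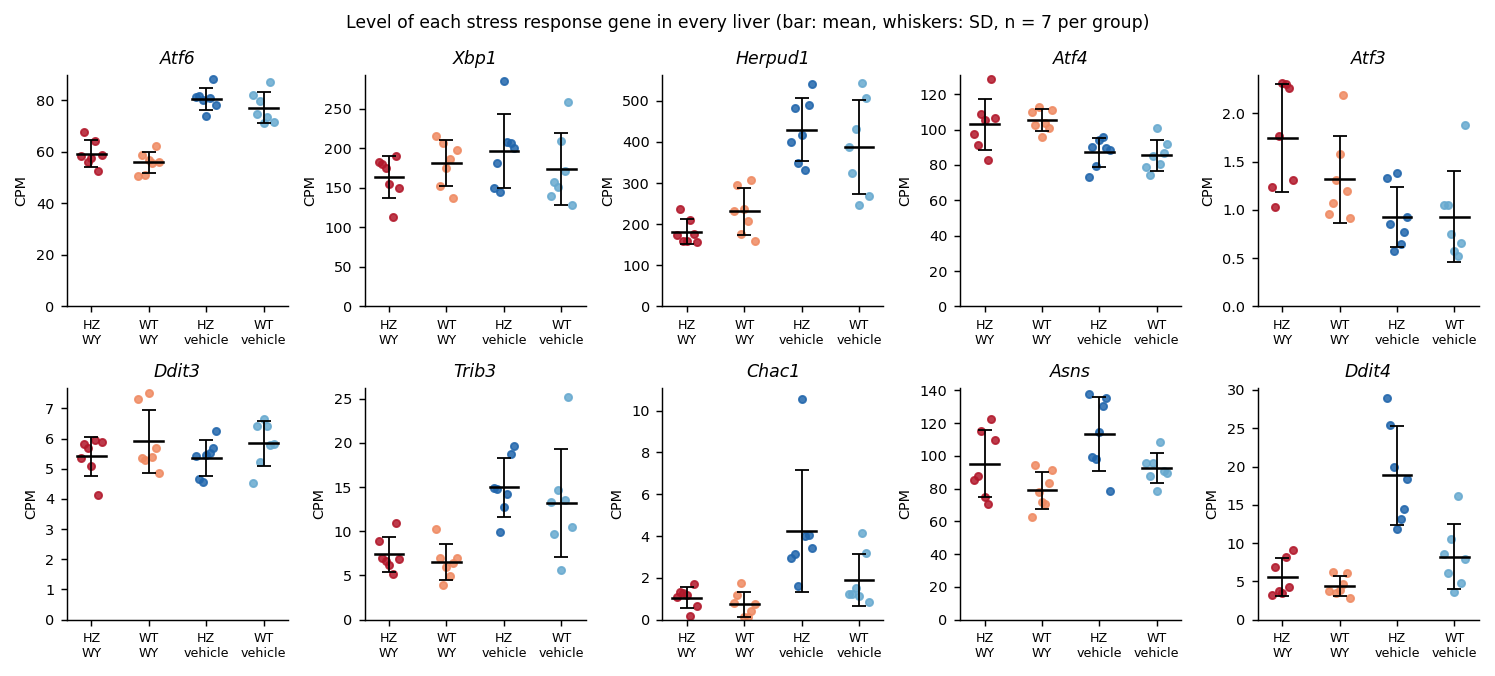
CPM of each of the 10 genes (vertical axes, from 0) in every liver, in the order HZ WY, WT WY, HZ vehicle and WT vehicle, with the group mean as a bar and the SD as whiskers (n = 7 per group). Atf6 shows no overlap between WY and vehicle in either genotype, and Herpud1 and Ddit4 show none in HZ. Xbp1, Atf4, Atf3, Ddit3, Trib3, Chac1 and Asns overlap in both genotypes. Ddit4 is highest in HZ vehicle livers at 11.8 to 29.0 CPM.

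WY changed most of these genes, and mainly downwards: Atf6, Herpud1, Trib3, Chac1 and Ddit4 fell in both genotypes, Atf4 rose in both, and Atf3 rose in HZ. In HZ livers 7 of 10 passed at an adjusted p below 0.05 (edgeR's quasi-likelihood test, Benjamini-Hochberg over 12607 genes), beside 55.7% of all genes. Of these 7, 2 rose and 5 fell, beside 29.3% and 26.4% of all genes. In WT livers 6 of 10 passed, beside 54.1% of all genes, with 1 rise and 5 falls beside 27.4% and 26.7%. The share called was thus close to that of all genes in both genotypes. The median log2 fold change of the 10 was -0.35 in HZ, beside 0.01 for all genes, and -0.35 in WT, beside -0.02 for all genes. The groups did not overlap for 3 genes in HZ (Atf6, Herpud1 and Ddit4, beside 22.5% of all genes and 9.89% in the downward direction) and for 1 in WT (Atf6, beside 27.7%, with 12.1% downward).

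In the ER branch Atf6 and Herpud1 fell in both genotypes and Xbp1 passed in neither. Atf6 (chromosome 1, 170704674 to 170867771, minus strand, GRCm38) had 52.6, 58.5 and 67.9 CPM in HZ WY livers (lowest, median and highest of 7), against 73.9, 80.8 and 88.2 CPM in HZ vehicle livers. In WT it had 50.6, 56.0 and 62.3 CPM with WY, against 71.1, 74.8 and 87.0 CPM with vehicle. Every WY liver lay below every vehicle liver in both genotypes. The log2 fold change was -0.44 ± 0.06 in HZ (adjusted p = 2.44e-07, edgeR) and -0.47 ± 0.06 in WT (adjusted p = 1.32e-07), which is 1.36-fold and 1.38-fold lower. With the trend on transcript length removed from each library the change in WT was -0.30 (adjusted p = 1.44e-05). The hepatocyte markers that moved with WY are given above, and their part in the fall of Atf6 was not tested.

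Herpud1 (chromosome 8, 94386438 to 94395377, plus strand), whose promoter carries both elements shown above, had 158, 175 and 236 CPM in HZ WY livers, against 332, 416 and 540.3 CPM in HZ vehicle livers. In WT it had 158, 232 and 309 CPM with WY, against 247, 387 and 544 CPM with vehicle. The HZ groups were separate, and the WT groups overlapped between 247 and 309 CPM. Herpud1 fell 2.36-fold in HZ (-1.24 ± 0.17 log2 units, adjusted p = 7.65e-07, edgeR) and 1.67-fold in WT (-0.74 ± 0.17, adjusted p = 0.000538). With the clock score described below as a covariate the fall in HZ was -0.66 log2 units (adjusted p = 0.00285).

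Xbp1 (chromosome 11, 5520659 to 5525893, plus strand) did not pass in either genotype. It had 113, 176 and 189.8 CPM in HZ WY livers, against 145, 199.9 and 285 CPM in HZ vehicle livers, and 137, 186 and 216 CPM in WT WY livers, against 128, 158 and 259 CPM in WT vehicle livers. The groups overlapped over most of their ranges. The log2 fold change was -0.26 ± 0.15 in HZ (adjusted p = 0.147, edgeR) and 0.06 ± 0.15 in WT (adjusted p = 0.749), with approximate 95% intervals of -0.56 to 0.04 and -0.24 to 0.36. The counts join the spliced and the unspliced form.

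In the integrated stress response Atf4, the central factor, was higher with WY while several of its targets were lower. Atf4 (chromosome 15, 80255184 to 80257541, plus strand) had 82.7, 106 and 128 CPM in HZ WY livers, against 73.1, 89.3 and 95.9 CPM in HZ vehicle livers, and 95.6, 104 and 113 CPM in WT WY livers, against 74.3, 85.2 and 101 CPM in WT vehicle livers. Its groups overlapped in both genotypes. Atf4 rose 1.18-fold in HZ (0.24 ± 0.08 log2 units, adjusted p = 0.0101, edgeR) and 1.23-fold in WT (0.30 ± 0.08, adjusted p = 0.00181). The call in HZ was lost with the clock score as a covariate (0.06, adjusted p = 0.699) and with the transcript length trend removed (0.12, adjusted p = 0.137), which gave 0.17 in WT (adjusted p = 0.0436).

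Trib3 (chromosome 2, 152337422 to 152344032, minus strand) had 5.19, 6.87 and 11.0 CPM in HZ WY livers, against 9.88, 14.8 and 19.7 CPM in HZ vehicle livers. In WT it had 3.98, 6.45 and 10.3 CPM with WY, against 5.67, 13.3 and 25.2 CPM with vehicle, where animal 31 was the highest of the 28 livers. Trib3 showed a 2.02-fold fall in HZ (-1.02 ± 0.24 log2 units, adjusted p = 0.000657, edgeR) and a 2.02-fold fall in WT (-1.02 ± 0.24, adjusted p = 0.000825), although single livers of the groups overlapped in both genotypes. The call in HZ was lost with the clock score as a covariate (-0.70, adjusted p = 0.109).

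Chac1 (chromosome 2, 119351229 to 119354381, plus strand) had 0.173, 1.18 and 1.70 CPM in HZ WY livers, against 1.62, 3.42 and 10.6 CPM in HZ vehicle livers, where animal 30 was far above the other 6. In WT it had 0.110, 0.729 and 1.76 CPM with WY, against 0.855, 1.22 and 4.17 CPM with vehicle. It fell 4.01-fold in HZ (-2.0 ± 0.46 log2 units, adjusted p = 0.00058, edgeR) and 2.64-fold in WT (-1.40 ± 0.51, adjusted p = 0.0234), with overlap in both genotypes. The clock score as a covariate ended the call in HZ (-1.59, adjusted p = 0.0678) and in WT (-1.21, adjusted p = 0.0753). The WT call also ended without WT vehicle animal 37 (-1.08, adjusted p = 0.0804) or 31 (-1.22, adjusted p = 0.0569) and without WT WY animal 20 (-1.20, adjusted p = 0.0521) or 24 (-1.20, adjusted p = 0.0508).

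Asns (chromosome 6, 7675169 to 7693254, minus strand) had 70.9, 87.5 and 123 CPM in HZ WY livers, against 78.3, 115 and 138 CPM in HZ vehicle livers, and 62.8, 77.9 and 94.4 CPM in WT WY livers, against 78.4, 90.9 and 108 CPM in WT vehicle livers. The groups overlapped, and neither the HZ difference of -0.25 ± 0.13 log2 units (adjusted p = 0.092, edgeR) nor the WT difference of -0.23 ± 0.13 (adjusted p = 0.13) passed. Both passed with the transcript length trend removed (-0.36, adjusted p = 0.0171 in HZ and -0.33, adjusted p = 0.0275 in WT).

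Atf3 (chromosome 1, 191170296 to 191218039, minus strand) had 1.02, 1.76 and 2.31 CPM in HZ WY livers, against 0.575, 0.858 and 1.38 CPM in HZ vehicle livers, and rose 1.86-fold (0.90 ± 0.27 log2 units, adjusted p = 0.00544, edgeR) with some overlap. In WT it had 0.911, 1.19 and 2.19 CPM with WY, against 0.521, 0.748 and 1.88 CPM with vehicle, and the difference of 0.50 ± 0.28 log2 units did not pass (adjusted p = 0.126). It passed without WT vehicle animal 32, the highest of its group (0.77, adjusted p = 0.0167). Ddit3 (chromosome 10, 127290774 to 127296288, plus strand) kept to a narrow range in all groups, with 4.13, 5.68 and 5.94 CPM in HZ WY, 4.86, 5.37 and 7.51 in WT WY, 4.55, 5.46 and 6.26 in HZ vehicle and 4.53, 5.81 and 6.65 in WT vehicle livers. Its log2 fold change was 0.01 ± 0.11 in HZ and 0.02 ± 0.11 in WT (adjusted p = 0.925 and 0.888, edgeR), with approximate 95% intervals of -0.20 to 0.23 and -0.19 to 0.23. Exons of Ddit3 share 68 bases, 3.97% of their length, with Mars on the opposite strand, and 105 bases (6.13%) with a further annotated gene of the same name on the same strand, so some of its reads may have been counted elsewhere.

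Ddit4 (chromosome 10, 59949669 to 59951834, minus strand), which links ER stress, ATF4, lack of oxygen and glucocorticoids to mTORC1, had 3.17, 4.30 and 9.10 CPM in HZ WY livers, against 11.8, 18.4 and 29.0 CPM in HZ vehicle livers. In WT it had 2.85, 3.90 and 6.25 CPM with WY, against 3.55, 7.87 and 16.2 CPM with vehicle. In HZ every WY liver lay below every vehicle liver, and in WT the groups overlapped. It fell 3.41-fold in HZ (-1.77 ± 0.30 log2 units, adjusted p = 1.46e-05, edgeR) and 1.85-fold in WT (-0.89 ± 0.31, adjusted p = 0.0168). With the clock score as a covariate the change in HZ was -1.18 (adjusted p = 0.0226). The WT call ended without vehicle animal 37, the highest of its group at 16.2 CPM (-0.64, adjusted p = 0.0693).

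**Figure D2:**
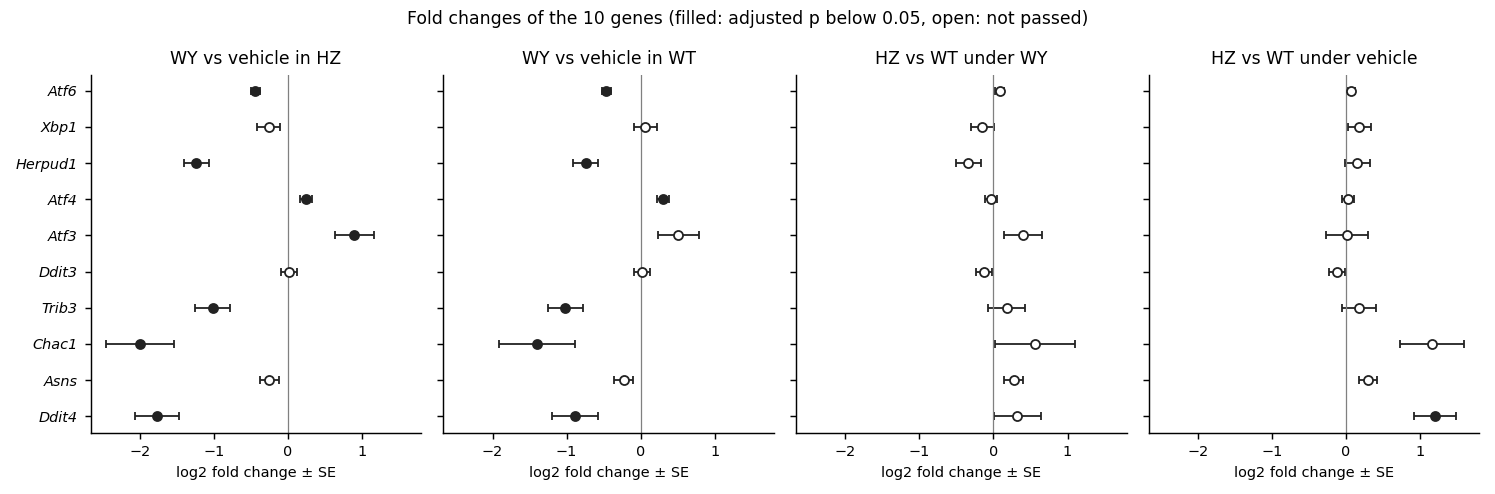
Log2 fold change with its SE (horizontal axes) of the 10 genes for WY against vehicle in HZ and in WT and for HZ against WT under WY and under vehicle. Filled points passed at an adjusted p below 0.05, which 7, 6, 0 and 1 of the 10 did in that order of panels.

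Between the genotypes a single gene of the 10 passed. Under vehicle Ddit4 was 2.30-fold higher in HZ, with 18.9 ± 6.44 CPM in HZ and 8.23 ± 4.22 CPM in WT livers (SD, n = 7 each, 1.20 ± 0.29 log2 units, adjusted p = 0.0307, edgeR). The other 9 did not pass, so that 1 of 10 was called, beside 2.07% of all genes in either direction and 0.301% higher. The median difference of the 10 was 0.16 log2 units, beside -0.0014 for all genes. No gene of the 10 had groups without overlap, beside 0.27% of all genes. The 7 HZ vehicle livers in order had 11.8, 13.2, 14.4, 18.4, 19.9, 25.4 and 29.0 CPM of Ddit4, and the 7 WT vehicle livers 3.55, 4.85, 6.08, 7.87, 8.53, 10.5 and 16.2 CPM. The 2 groups overlapped, with WT animal 37, at 16.2 CPM, above the lowest 3 HZ livers. An exact two-sided permutation test over the 3432 splits of these 14 livers gave p = 0.0035 for the mean difference of 1.27 in log2 CPM, before any adjustment for the 20 such tests of the 10 genes. These are the same HZ vehicle livers that the WY effect in HZ was measured against.

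The Ddit4 call depended on what entered the fit, although its size moved little. It was lost when only the vehicle libraries were fitted (1.22, adjusted p = 0.181), without the 5 libraries that stood apart (1.16, adjusted p = 0.151), without a filter on low counts (1.19, adjusted p = 0.0513), without the vehicle animals numbered 71 to 78 (1.21, adjusted p = 0.216) and with a term for those animals (1.22, adjusted p = 0.0681). Those animals, whose numbers lie apart from the other vehicle animals, are WT 74, 76 and 78 and HZ 71. Leaving them out thus removes more WT than HZ livers, and the labels do not state whether the numbers mark a batch. Leaving out single vehicle libraries gave 1.06 to 1.45 log2 units, and the call ended without WT animal 74, 76, 29 or 32 and without HZ animal 38 or 39 (adjusted p = 0.0745, 0.0838, 0.0722, 0.0562, 0.0939 and 0.0562, edgeR). Of 12 targets of the glucocorticoid receptor, 10 had a positive HZ difference under vehicle and none passed (median 0.26 log2 units, beside the median of all genes given above). Among them Tsc22d3, a glucocorticoid-induced leucine zipper, had 239.8 ± 48.5 CPM in HZ and 159 ± 42.4 CPM in WT vehicle livers (adjusted p = 0.187, edgeR, n = 7 each), and all 10 Kupffer markers (median 0.37) and all 5 tested neutrophil and monocyte markers (median 0.80) had positive differences without a call. All 10 textbook PPARα targets had lower HZ estimates under vehicle, with a median of -0.86 log2 units, and 2 of them passed: Plin2, which coats lipid droplets (-1.27 ± 0.27, adjusted p = 0.0183, edgeR), and Acot1, an acyl-CoA thioesterase (-1.55 ± 0.38, adjusted p = 0.0345). Neither passed with only the vehicle libraries fitted or without the 5 libraries that stood apart, where no gene did. When single libraries were left out, 0 to 8 of the 10 targets passed as lower in HZ. The part of these markers and targets in the Ddit4 difference was not tested.

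Chac1 under vehicle had 4.25 ± 2.90 CPM in HZ and 1.90 ± 1.26 CPM in WT livers, a difference of 1.16 ± 0.43 log2 units that did not pass (adjusted p = 0.154, edgeR; exact permutation p = 0.0233 before adjustment). It passed with limma voom and quality weights (1.30, adjusted p = 0.0441). Asns was 0.30 ± 0.13 log2 units apart under vehicle (adjusted p = 0.21, edgeR) and 0.27 ± 0.13 under WY (adjusted p = 0.188), with higher HZ means in both. Atf6, Xbp1, Herpud1, Atf4, Atf3, Ddit3 and Trib3 differed between HZ and WT vehicle livers by -0.12 to 0.18 log2 units.

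Under WY none of the 10 passed between the genotypes, beside 3.16% of all genes (edgeR; 1 of the 10 had an unadjusted p below 0.05, and limma voom and DESeq2 also called 0). Ddit4 had 5.56 ± 2.44 CPM in HZ and 4.43 ± 1.31 CPM in WT livers (0.32 ± 0.31 log2 units, adjusted p = 0.563). Herpud1 had 182 ± 30.0 CPM in HZ and 231 ± 56.5 CPM in WT livers (-0.34 ± 0.17, adjusted p = 0.213). The median difference of the 10 was 0.13 log2 units, beside 0.01 for all genes, and each gene's groups overlapped, beside 1.35% of all genes whose groups did not.

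The WY effect itself was compared between the genotypes by the interaction term, the effect in HZ minus the effect in WT. None of the 10 passed, and no gene of the 12607 did (0% called; 1182 genes had an unadjusted p below 0.05, DESeq2 called 3 and limma voom 1, none of them among the 10). Ddit4 had an interaction of -0.88 ± 0.43 log2 units (approximate 95% interval -1.72 to -0.04, adjusted p = 0.532, edgeR) and Herpud1 -0.49 ± 0.24 (interval -0.97 to -0.02, adjusted p = 0.526). Chac1 had -0.60 ± 0.69 (interval -1.95 to 0.75) and Atf3 0.39 ± 0.38 (interval -0.36 to 1.15). The rise of Atf3 passed in HZ and not in WT, and the test of the difference did not pass (adjusted p = 0.762). Trib3 had 0.00 ± 0.34 and Atf6 0.02 ± 0.08 log2 units, with intervals of -0.66 to 0.66 and -0.14 to 0.18.

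The wider pathway was read from lists of other genes. Of 24 genes of ER folding and ER-associated degradation, 16 fell and 1 rose with WY in HZ (median -0.36 log2 units), and 15 fell and 2 rose in WT (median -0.32), beside the shares and medians of all genes given above. The rises in HZ numbered 2 with only the HZ libraries fitted or without WT vehicle animal 37, 31 or 32 or HZ vehicle animal 30, 35 or 36, and 0 with the transcript length trend removed, where 1 gene rose in WT. Edem1, which marks misfolded glycoproteins for degradation, had 155 ± 11.6 CPM in HZ WY and 228 ± 24.0 CPM in HZ vehicle livers (-0.55 ± 0.06 log2 units, adjusted p = 3.07e-08, edgeR), and 147 ± 11.3 CPM in WT WY and 222 ± 9.64 CPM in WT vehicle livers (-0.59 ± 0.06, adjusted p = 1.17e-08). Ero1lb, an oxidase that drives disulfide formation, fell in both genotypes, with log2 fold changes of -1.15 ± 0.14 in HZ and -1.08 ± 0.14 in WT (adjusted p = 6.33e-08 and 2.17e-07). Canx, the lectin chaperone calnexin, had -0.46 ± 0.06 in HZ and -0.44 ± 0.06 in WT, and Dnajc3, a co-chaperone that also inhibits PERK, -0.41 ± 0.07 in HZ and -0.57 ± 0.07 in WT, with all 4 adjusted p below 0.05. Hspa5, the master chaperone BiP, fell in HZ (-0.57 ± 0.10, adjusted p = 2.87e-05), with 520.2 ± 43.7 CPM in WY and 771 ± 124 CPM in vehicle livers, and was -0.15 ± 0.10 in WT without passing (adjusted p = 0.23; interaction -0.42 ± 0.15, adjusted p = 0.408). Creld2 had higher means with WY, with 32.0 ± 2.08 CPM against 24.5 ± 6.43 CPM with vehicle in HZ livers. In WT it had 46.1 ± 5.60 CPM with WY and 27.9 ± 10.9 CPM with vehicle. None of the 24 passed between HZ and WT in either treatment. Under WY the smallest p belonged to Hspa5 (-0.32 ± 0.10 log2 units, adjusted p = 0.0687, edgeR) and Creld2 (-0.53 ± 0.17, adjusted p = 0.0689). When single libraries were left out, 0 to 2 were higher in HZ under vehicle and 0 to 1 lower under WY.

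Among 13 sensors, kinases and phosphatase subunits upstream of the 10 genes, 4 rose and 2 fell with WY in HZ, and 3 rose and 3 fell in WT. These 6 of 13 in each genotype stand beside 55.7% of all genes called in HZ and 54.1% in WT. The count of rises in HZ was 2 with DESeq2 size factors, the clock score or without vehicle animal 38, and 1 without vehicle animal 35 or the 5 libraries that stood apart. In WT, 5 rose with the transcript length trend removed. Ern1, which encodes IRE1α, fell, with log2 fold changes of -0.75 ± 0.12 in HZ and -0.73 ± 0.12 in WT (adjusted p = 4.5e-06 and 7.22e-06, edgeR). Eif2ak3, which encodes PERK, had 13.1 ± 0.965 CPM in HZ WY and 24.0 ± 4.09 CPM in HZ vehicle livers (-0.87 ± 0.13, adjusted p = 1.57e-06), and changed by -0.63 ± 0.13 in WT (adjusted p = 0.000177). Creb3l3, a liver ER-bound factor that works with PPARα, rose by 0.98 ± 0.09 in HZ and 0.73 ± 0.09 in WT (adjusted p = 6.98e-10 and 1.31e-07). Ppp1r15a, the stress-induced subunit that reverses eIF2α phosphorylation, rose in WT (0.44 ± 0.10, adjusted p = 0.000296) and was 0.19 ± 0.10 in HZ (adjusted p = 0.0882). Under vehicle Creb3l3 was lower in HZ, with 364 ± 58.0 CPM against 474 ± 74.6 CPM in WT (-0.38 ± 0.09 log2 units, adjusted p = 0.0294). This call was lost with only the vehicle libraries fitted, without the 5 libraries that stood apart, without or with a term for the vehicle animals 71 to 78, without WT vehicle animal 74, 76, 78 or 29 and without HZ vehicle animal 38, 30 or 35.

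Of 36 other ATF4 targets, 32 were tested and split in both directions: 12 rose and 9 fell with WY in HZ (median 0.09 log2 units), and 10 rose and 6 fell in WT (median 0.14). Over all genes 29.3% rose and 26.4% fell in HZ, and 27.4% rose and 26.7% fell in WT, so that the 16 of 32 called in WT lie near the 54.1% of all genes. Slc3a2, a subunit of amino acid exchangers, rose by 0.57 ± 0.06 in HZ and 0.46 ± 0.06 in WT (adjusted p = 1.53e-08 and 8.48e-07, edgeR). Psph, the last enzyme of serine synthesis, rose by 0.55 ± 0.08 in HZ and 0.66 ± 0.08 in WT, and Atf5, a relative of ATF4, by 0.74 ± 0.10 in HZ and 0.45 ± 0.10 in WT. Cth, which makes cysteine, had 274 ± 51.2 CPM in HZ WY and 536 ± 119.7 CPM in HZ vehicle livers and fell in both genotypes (-0.97 ± 0.13 in HZ and -0.93 ± 0.13 in WT). Gpt2, an alanine transaminase, also fell, with -0.89 ± 0.11 in HZ and -0.83 ± 0.11 in WT (adjusted p = 1.67e-07 and 6.43e-07). With the clock score as a covariate 4 of the 32 rose in HZ in place of 12, and with the transcript length trend removed 3 fell in WT in place of 6. Under vehicle 1 of the 32 passed between HZ and WT: Mthfd2, a mitochondrial folate enzyme, with 3.15 ± 1.32 CPM in HZ and 1.76 ± 0.324 CPM in WT livers (0.84 ± 0.21, adjusted p = 0.031). This call was lost, and no ATF4 target passed, with only the vehicle libraries fitted, without the 5 libraries that stood apart, without or with a term for the vehicle animals 71 to 78, without WT vehicle animal 74, 76, 29 or 32 and without HZ vehicle animal 38, 34 or 35. Over all fits without a single library, 0 to 2 ATF4 targets passed as higher in HZ under vehicle. Sesn2, also on the mTORC1 list below, was 0.51 ± 0.14 log2 units higher there without passing (adjusted p = 0.0537, edgeR).

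Beside Ddit4, 12 of 13 other regulators of mTORC1 were tested, of which 6 rose and 6 fell with WY in HZ and 4 rose and 5 fell in WT, beside the same shares of all genes. Sesn1, a leucine-linked inhibitor of mTORC1, fell, with log2 fold changes of -0.66 ± 0.07 in HZ and -0.54 ± 0.07 in WT, and so did Tsc1, a subunit of the complex through which Ddit4 acts, with -0.52 ± 0.07 in HZ and -0.67 ± 0.07 in WT (each adjusted p under 0.05, edgeR). Mtor itself rose by 0.88 ± 0.11 in HZ and 0.64 ± 0.11 in WT. Akt1s1, of the same list, rose by 0.57 ± 0.07 in HZ and 0.57 ± 0.07 in WT (adjusted p = 3.63e-08 and 4.27e-08, edgeR). None of the 12 passed between HZ and WT in either treatment. When single libraries were left out, 0 to 1 were higher in HZ under vehicle, and 0 to 1 higher and 0 to 2 lower under WY. Among the 12 glucocorticoid targets, 9 fell and 1 rose with WY in HZ, and 5 fell and 1 rose in WT, beside 26.4% of all genes that fell and 29.3% that rose in HZ and 26.7% and 27.4% in WT. The rise in WT was lost without WT WY animal 19, 20 or 6 or WT vehicle animal 37, 31 or 32. DESeq2 called 8 falls in WT, and 3 genes fell in HZ with the clock score as a covariate. Tsc22d3 had 65.8 ± 19.7 CPM in HZ WY and 239.8 ± 48.5 CPM in HZ vehicle livers (-1.87 ± 0.25, adjusted p = 5.59e-07), and 74.4 ± 32.8 CPM in WT WY and 159 ± 42.4 CPM in WT vehicle livers (-1.10 ± 0.24, adjusted p = 0.000439). The part of these targets in the fall of Ddit4 was not tested. Of 11 immediate early genes 10 were tested, and 3 rose and 4 fell in HZ, against 2 rises and 2 falls in WT, beside the same shares of all genes, while with the clock score 1 rose and 0 fell in HZ.

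**Figure D3:**
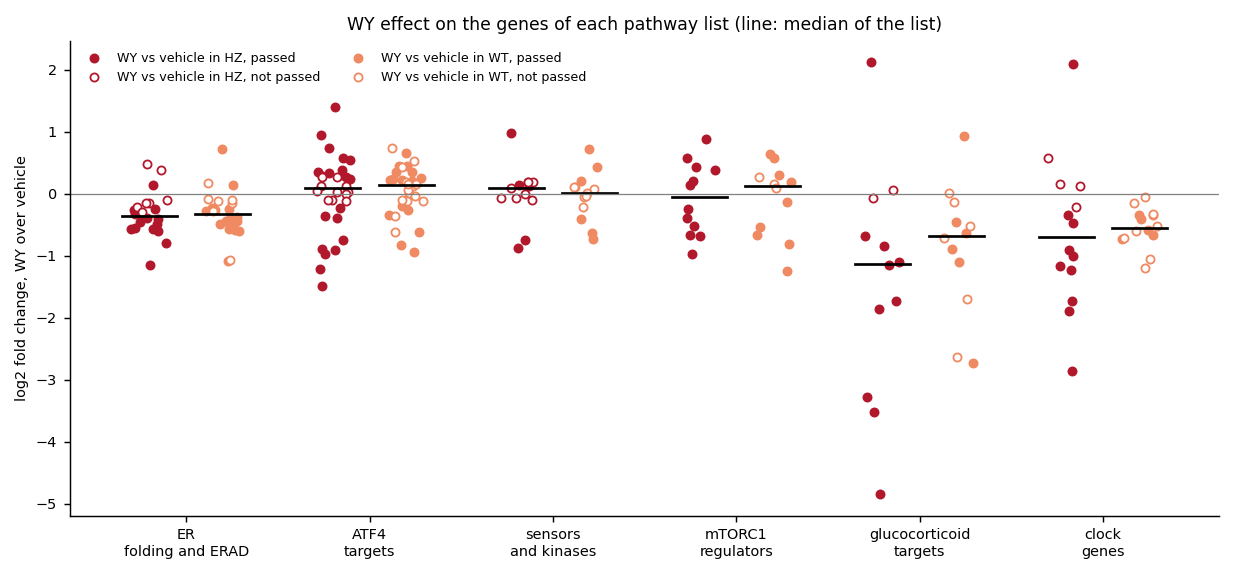
Log2 fold change of WY over vehicle (vertical axis) of each tested gene of 6 lists, in HZ on the left and in WT on the right of each list, with filled points for genes that passed and a line at the list's median. ER folding genes lie mostly below 0 (median -0.36 in HZ and -0.32 in WT), while ATF4 targets lie on both sides (0.09 in HZ and 0.14 in WT).

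Animals within a group differed enough to ask which of the 10 genes moved together. Over the 28 livers, log2 CPM values were taken as deviations from their own group mean, which gave 45 pairs of genes with 100000 permutations within groups and Benjamini-Hochberg adjustment over the 45. The median Pearson's r was -0.02, 22 pairs were positive, and 5 pairs had adjusted p below 0.05 by both Pearson and Spearman. Of these, 2 involved Xbp1 and a stress target. For Xbp1 and Chac1 Pearson's r was 0.61 (permutation p = 0.00096, adjusted p = 0.0216) and Spearman's rho was 0.62 (permutation p = 0.00113, adjusted p = 0.0254), and r was 0.51 without the 2 livers farthest from the median, 0.44 without the 5 libraries that stood apart, 0.52 in the WY livers and 0.74 in the vehicle livers. For Xbp1 and Ddit4 Pearson's r was -0.65 (permutation p = 0.00081, adjusted p = 0.0216) and Spearman's rho was -0.72 (permutation p = 9e-05, adjusted p = 0.00405), so that livers with more Xbp1 than their group had less Ddit4, and r was -0.60 without the 2 livers farthest from the median, -0.59 without the 5 libraries that stood apart, -0.67 in the WY livers and -0.64 in the vehicle livers.

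The other 3 pairs joined the transcription factors and Herpud1. For Atf4 and Xbp1 Pearson's r was 0.56 (permutation p = 0.00361, adjusted p = 0.0385) and Spearman's rho was 0.55 (permutation p = 0.00444, adjusted p = 0.0442), and r was 0.47 without the 2 livers farthest from the median, 0.52 without the 5 libraries that stood apart, 0.61 in the WY livers and 0.55 in the vehicle livers. For Atf6 and Herpud1 Pearson's r was 0.56 (permutation p = 0.00313, adjusted p = 0.0385) and Spearman's rho was 0.54 (permutation p = 0.0059, adjusted p = 0.0442), and r was 0.47 without the 2 livers farthest from the median, 0.51 without the 5 libraries that stood apart, 0.66 in the WY livers and 0.49 in the vehicle livers. For Atf4 and Atf6 Pearson's r was -0.57 (permutation p = 0.00428, adjusted p = 0.0385) and Spearman's rho was -0.59 (permutation p = 0.0024, adjusted p = 0.036), so that livers high in Atf4 were low in Atf6, and r was -0.44 without the 2 livers farthest from the median, -0.43 without the 5 libraries that stood apart, -0.80 in the WY livers and -0.26 in the vehicle livers. Atf4 and its target Asns had r = 0.22, and Trib3 and Chac1 r = 0.36, neither of which passed.

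**Figure D4:**
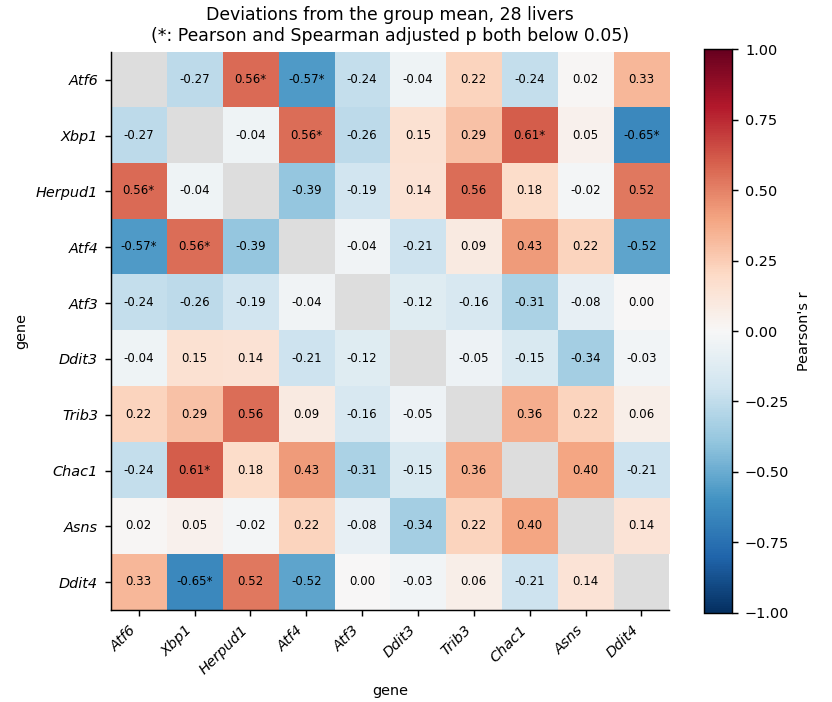
Pearson's r (colour and printed value, -1 to 1) between the deviations of each pair of the 10 genes from their group means over 28 livers. Asterisks mark the 5 pairs with adjusted p below 0.05 by both Pearson and Spearman, which run from -0.65 for Xbp1 and Ddit4 to 0.61 for Xbp1 and Chac1.

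The genes most like each member were sought among 9240 genes with a mean of at least 5 CPM by Pearson's r of the same deviations over 28 livers, as a description with no test. Herpud1 was most like Foxo1 (0.84), Pim3 (0.80) and Mpzl2 (0.79). Atf4 was most like Srf (0.82), Arpc5l (0.82) and Pgp (0.80), and Atf6 most like C230081A13Rik (0.80), Dclre1b (0.72) and Fndc3a (0.71). Ddit4 was most like Scaper (0.74), the glucocorticoid target Tsc22d3 (0.72) and Zmym6 (0.70). Chac1 was most like Eif4ebp1 (0.77), itself on the ATF4 list, Rpl13 (0.76) and Trappc2l (0.75). The nearest genes were Timm17b (0.77) for Xbp1, Stx5a (0.73) for Trib3, Myadm (0.77) for Asns, Synpo (0.66) for Atf3 and Glyctk (0.63) for Ddit3. No member of the 10 was among the nearest 3 of another, but Atf3 and Chac1, with means below 5 CPM, were not among the genes searched.

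Liver clock genes cycle through the day and were summarised in a clock score, the scaled first principal component of 14 clock genes, which is higher where Dbp, a factor of the clock's output, is higher. The score ran from -2.18 to -0.18 in HZ WY, -1.31 to 1.01 in WT WY, -0.05 to 1.15 in HZ vehicle and -1.03 to 1.72 in WT vehicle livers. HZ WY and HZ vehicle livers did not overlap in the score, while the WT groups did. Of the 14 clock genes 9 fell and 1 rose with WY in HZ, and 5 fell in WT, beside 26.4% falling and 29.3% rising in HZ and 26.7% falling in WT among all genes. Within groups, 2 of the 10 members followed the score by both Pearson and Spearman after adjustment over 10. For Herpud1 Pearson's r was 0.71 (permutation p = 0.0002, adjusted p = 0.002) and Spearman's rho was 0.66 (permutation p = 0.0008, adjusted p = 0.008), and r was 0.62 without the 2 livers farthest from the median, 0.69 without the 5 libraries that stood apart, 0.71 in the WY livers and 0.72 in the vehicle livers. For Atf6 Pearson's r was 0.57 (permutation p = 0.00456, adjusted p = 0.0228) and Spearman's rho was 0.52 (permutation p = 0.011, adjusted p = 0.0484), and r was 0.45 without the 2 livers farthest from the median, 0.50 without the 5 libraries that stood apart, 0.74 in the WY livers and 0.37 in the vehicle livers. Atf4 ran opposite to the score and passed by Spearman only. Its r was -0.47 (permutation p = 0.0151, adjusted p = 0.0502) and its rho -0.48 (permutation p = 0.0145, adjusted p = 0.0484), with r of -0.72 in the WY livers and -0.19 in the vehicle livers. Ddit4 had r = 0.40 (permutation p = 0.0637, adjusted p = 0.159; rho = 0.35, permutation p = 0.0920, adjusted p = 0.230), and Trib3 had r = 0.82 in vehicle livers and -0.44 in WY livers. The labels used here state no clock time of dosing or of tissue collection. With the score as a covariate Atf6, Herpud1, Ddit4 and Atf3 still passed for WY in HZ, and Atf4, Trib3 and Chac1 did not. Since the score itself separated the HZ groups, a WY effect and a difference along the score cannot be told apart there.

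**Figure D5:**
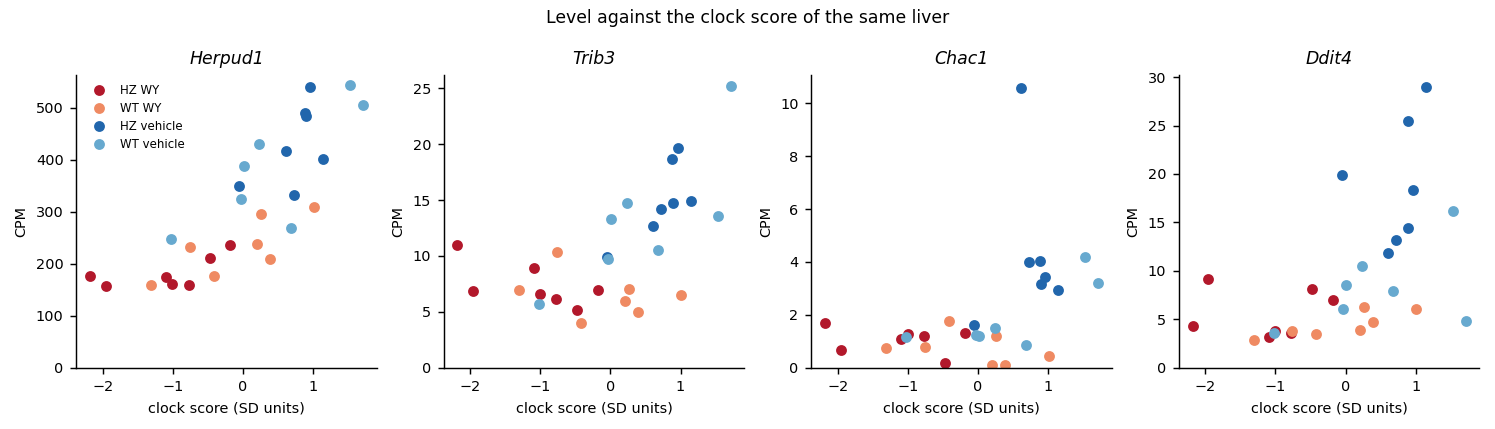
CPM of Herpud1, Trib3, Chac1 and Ddit4 (vertical axes, from 0) against the clock score of the same liver (horizontal axes, SD units), coloured by group. HZ WY livers lie at scores of -2.18 to -0.18 and HZ vehicle livers at -0.05 to 1.15, and Herpud1 follows the score within groups (r = 0.71).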

How the data were processed

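Liver RNA of 28 mice, extracted with Trizol, was made into libraries with the NEBNext Ultra kit, per the labels' protocols. Per the submitters' processing notes the tools were STAR 2.5.0a, HTSeq 0.6.1p1 and DESeq2 1.18.1, with mm10 as the build. No source used here states the annotation or the strand setting, so overlapping genes may have exchanged reads. The authors deposited unnormalized read counts for each gene symbol, in a table of the 14 vehicle libraries (23423 rows) and a table of the 14 WY libraries (23425 rows). The 5 HTSeq summary rows of each table, holding among others 35.8 to 42.6% of reads without a unique placement and 6.35 to 9.08% outside genes, and 25 and 27 rows whose names had become dates (0.147 to 0.246% of gene counts) were left out. The share outside genes was 6.35 to 7.82% in WY and 7.85 to 9.08% in vehicle libraries. The date rows held 0.224 to 0.246% with WY and 0.147 to 0.160% with vehicle, so neither share overlapped between the treatments. Their part in the WY effects was not tested.

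The other 23393 symbols were analysed in R 4.3.3. Genes kept by filterByExpr (12607) were normalized by TMM and fitted with edgeR 4.0.16, robust quasi-likelihood, on all 28 libraries with a mean per group (24 residual degrees of freedom). P-values were adjusted over all genes of a contrast, with 0.05 as the threshold. The SE was taken as the size of the log2 fold change divided by the root of F, and for the interaction the root of the summed squares of the SEs of the 2 WY effects. Log2 CPM used a prior count of 2. All groups are separate animals. The members, the lists, the tests and the alternatives were chosen with earlier results of these data known. Named genes are the 10 members, the up to 4 genes of a list with the smallest p in a contrast, each also given in other contrasts, and the 3 nearest genes by correlation. Gene positions and exon lengths are from GENCODE M21 on GRCm38, and promoters from RefSeq on GRCm38.p6. For 2 marker symbols no row was found, and older symbols were used for 5 listed genes (Ero1lb is now Ero1b). The calls were checked on simulated counts in which few genes changed, equally many up and down. The counts were drawn from the spread that edgeR had fitted, gene by gene and with no libraries set apart. That check therefore cannot tell how well the genotype calls hold when libraries are left out. It also does not reach the WY contrasts, where 54.1% of all genes were called in WT and 55.7% in HZ. Alternatives were DESeq2 1.42.0 and its size factors, upper quartile scaling, limma 3.58.1 voom with quality weights, other filters, fewer libraries, a clock score and a length correction.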

Additional observations from a re-analysis of the deposited data

Results flagged for a closer look

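In 2 of the 40 combinations of gene and group, 1 liver lay so far from the other 6 that Dixon's test at the 95% level marked it. Chance alone marks about 1 in 20 groups. Chac1 in HZ vehicle animal 30 was 10.6 CPM, against 1.62 to 4.03 CPM in the other 6 livers of that group. Animal 30 is among the 5 libraries that stood apart, and its Kupffer marker sum of 737 CPM was the highest of the HZ vehicle group. Without these 5 libraries the HZ difference of Chac1 under vehicle was 0.77 log2 units (adjusted p = 0.542, edgeR), beside 1.16 ± 0.43 with them (adjusted p = 0.154). Atf3 in WT vehicle animal 32 was 1.88 CPM, against 0.521 to 1.05 CPM in the other 6 livers. The counts behind it were 33 reads in that library and 9 in the lowest library of the group. Without it the WY effect on Atf3 in WT was 0.77 log2 units (adjusted p = 0.0167, edgeR), beside 0.50 ± 0.28 with it (adjusted p = 0.126).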

How the results depend on the processing

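Of the 14 calls of a member, 510 of 531 fits under the alternatives gave the same call, 21 lost it and none reversed it. No paired analysis was possible because the animal numbers are not shared between groups. Between HZ and WT under vehicle, where 1 member passed, voom called 2 members (Ddit4 and Chac1), and 0 passed without a filter on low counts, with only the compared groups, without the 5 libraries that stood apart, and without or with a term for animals 71 to 78. Over all genes these settings called 701, 146, 0, 0, 0 and 69 genes beside 261, and DESeq2 called 521. Under WY, 398 genes were called between the genotypes, beside 683 with DESeq2 size factors, 1123 with DESeq2, 934 with voom, 153 unfiltered, 48 without the 5 libraries and 1018 with the clock score. With the clock score, 4 members in place of 7 and 4214 genes in place of 7024 passed for WY in HZ. Without single libraries, 0 to 1 members passed between HZ and WT under vehicle, and over all genes 43 (without WT animal 74) to 650 (without HZ animal 71) passed there and 74 (without WT animal 19) to 977 (without HZ animal 2) under WY. The causes were not tested. Beside Asns in the transcript length fit, Xbp1 passed there for WY in HZ (-0.34, adjusted p = 0.0499), and Asns passed in WT with only the compared groups (-0.24, adjusted p = 0.0292) and in HZ without vehicle animal 36 or WY animal 2 (-0.32 in both). Depth limited Chac1 and Atf3 most, which had 2 to 207 and 9 to 43 reads.

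The sign reversed only in values that were not called, given in log2 units. For HZ against WT under vehicle, Atf3 was -0.073 with voom, -0.000297 unfiltered, -0.30 without the 5 libraries, -0.027 with the clock score and -0.052 with the term for animals 71 to 78, and Atf4 was -0.024 without those animals and -0.020 with the term. Under WY, Atf4 was 0.093 without the 5 libraries and 0.0041 in the length fit. For WY in WT the length fit gave -0.011 for Xbp1 and -0.17 for Ddit3. For WY in HZ, Ddit3 was -0.0071 with DESeq2 size factors, -0.0061 with DESeq2, -0.030 without the 5 libraries and -0.13 in the length fit. For the interaction, Atf6 was -0.000396 with DESeq2 size factors, -0.000364 with DESeq2, -0.0060 with voom, -0.078 without the 5 libraries and -0.037 in the length fit. Trib3 was -0.023 with DESeq2 size factors, -0.0060 with upper quartile scaling, -0.023 with DESeq2, -0.22 with voom and -0.020 with genes of at least 5 CPM. Asns was 0.045 with voom and 0.19 without the 5 libraries, Atf4 was 0.041 without them, and Ddit3 was 0.057 with the clock score and 0.038 in the length fit. Without single libraries, Atf3 ran from -0.12 to 0.27 and Atf4 from -0.0037 to 0.071 under vehicle, and Atf4 from -0.093 to 0.014 under WY. Ddit3 ran from -0.041 to 0.063 for WY in WT and from -0.022 to 0.070 in HZ. The interaction ran from -0.012 to 0.050 for Atf6, -0.049 to 0.062 for Ddit3, -0.24 to 0.15 for Trib3 and -0.096 to 0.036 for Asns.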
